A study of Arabidopsis thaliana with 9 samples.

Results

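The comparison described here sets 3 RNA-Seq libraries of OE UPAT seedlings against 3 of WT seedlings, 6 of the 9 libraries of the series, and follows pathways and gene families across the 20021 genes that could be tested of 38194 in the files. OE UPAT is an Arabidopsis thaliana line of the Col-0 accession that carries the human long noncoding RNA (lncRNA) UPAT under the constitutive viral 35S promoter, introduced with Agrobacterium and kept by kanamycin selection. WT is the same accession without the transgene. Seedlings of both were whole, 4 days old and grown at 23 °C in long days on solid medium of reduced salt strength. The group OE UPAT stands for a single transgenic line, so that an effect of UPAT and an effect of the insertion, the selection or the line cannot be told apart. The remaining 3 libraries, labelled OE APOLO after a 35S construct of the Arabidopsis lncRNA APOLO, enter the same fit. The APOLO locus (AT2G34655) held 1, 3 and 3 counts in the libraries labelled OE APOLO and 2 counts in each WT library, so that the label is not borne out by this locus. Comparisons with these libraries are given below only as a second set of values, under that label.

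UPAT is known from human cells as an RNA that binds and stabilizes UHRF1, a protein that reads methylated DNA, and Arabidopsis has no gene of its own for this RNA. Plants have relatives of UHRF1, the VIM proteins, which recruit the maintenance DNA methyltransferase. A seedling of this age has used up much of its seed oil and lives from photosynthesis in its cotyledons while the root takes up sulfate, nitrate, phosphate and iron. The lists below follow these functions, and then growth, the cell cycle, hormones and defence.

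The OE UPAT libraries held 7901946 to 9206471 counts and the WT libraries 13023768 to 14084551, so that depth differed between the groups. UPAT has no row in the files and the label of the line was not checked through it. Of 9 root markers 8 could be tested, and 0 were called by edgeR or DESeq2 (0 at an unadjusted p under 0.05 in edgeR). Their summed level was 121 to 127 CPM in OE UPAT and 126 to 131 CPM in WT. For 8 markers of green shoots, the summed level was 21471 to 26228 CPM in OE UPAT and 16439 to 21227 CPM in WT, while the median log2 fold change of the 7 that could be tested was -0.03. The 5 seed markers summed to 1.83 to 3.07 CPM in OE UPAT and 4.04 to 8.89 CPM in WT, and 8 markers of flowers and pollen to 2.85 to 4.32 CPM against 4.55 to 5.68 CPM, with 3 of the 8 at 0 in both groups. CPM stands for counts scaled to a common library size, as defined by edgeR, after TMM normalization. In whole seedlings, fewer cells of a type and less RNA per cell cannot be told apart.

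With edgeR's quasi-likelihood test and a false discovery rate (FDR, after Benjamini and Hochberg) under 0.01, 2025 genes (10.1% of those tested) were called higher and 1946 (9.72%) lower in OE UPAT, together 19.8%. The median size of the called differences was 0.58 on the log2 scale, and 424 of the higher and 305 of the lower genes changed by at least 1 on the log2 scale. The ranges of OE UPAT and WT did not overlap for 3970 of the 3971 called genes, against 46.7% of all genes tested. The median log2 fold change of all genes tested was -0.01. The counts of the gene lists are read below against the shares of 10.1% and 9.72%. Of the called genes, 2251 (56.7%) were also called against the libraries labelled OE APOLO, a comparison that shares the OE UPAT libraries and in which 17.8% of the genes tested were called.

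**Figure D1:**
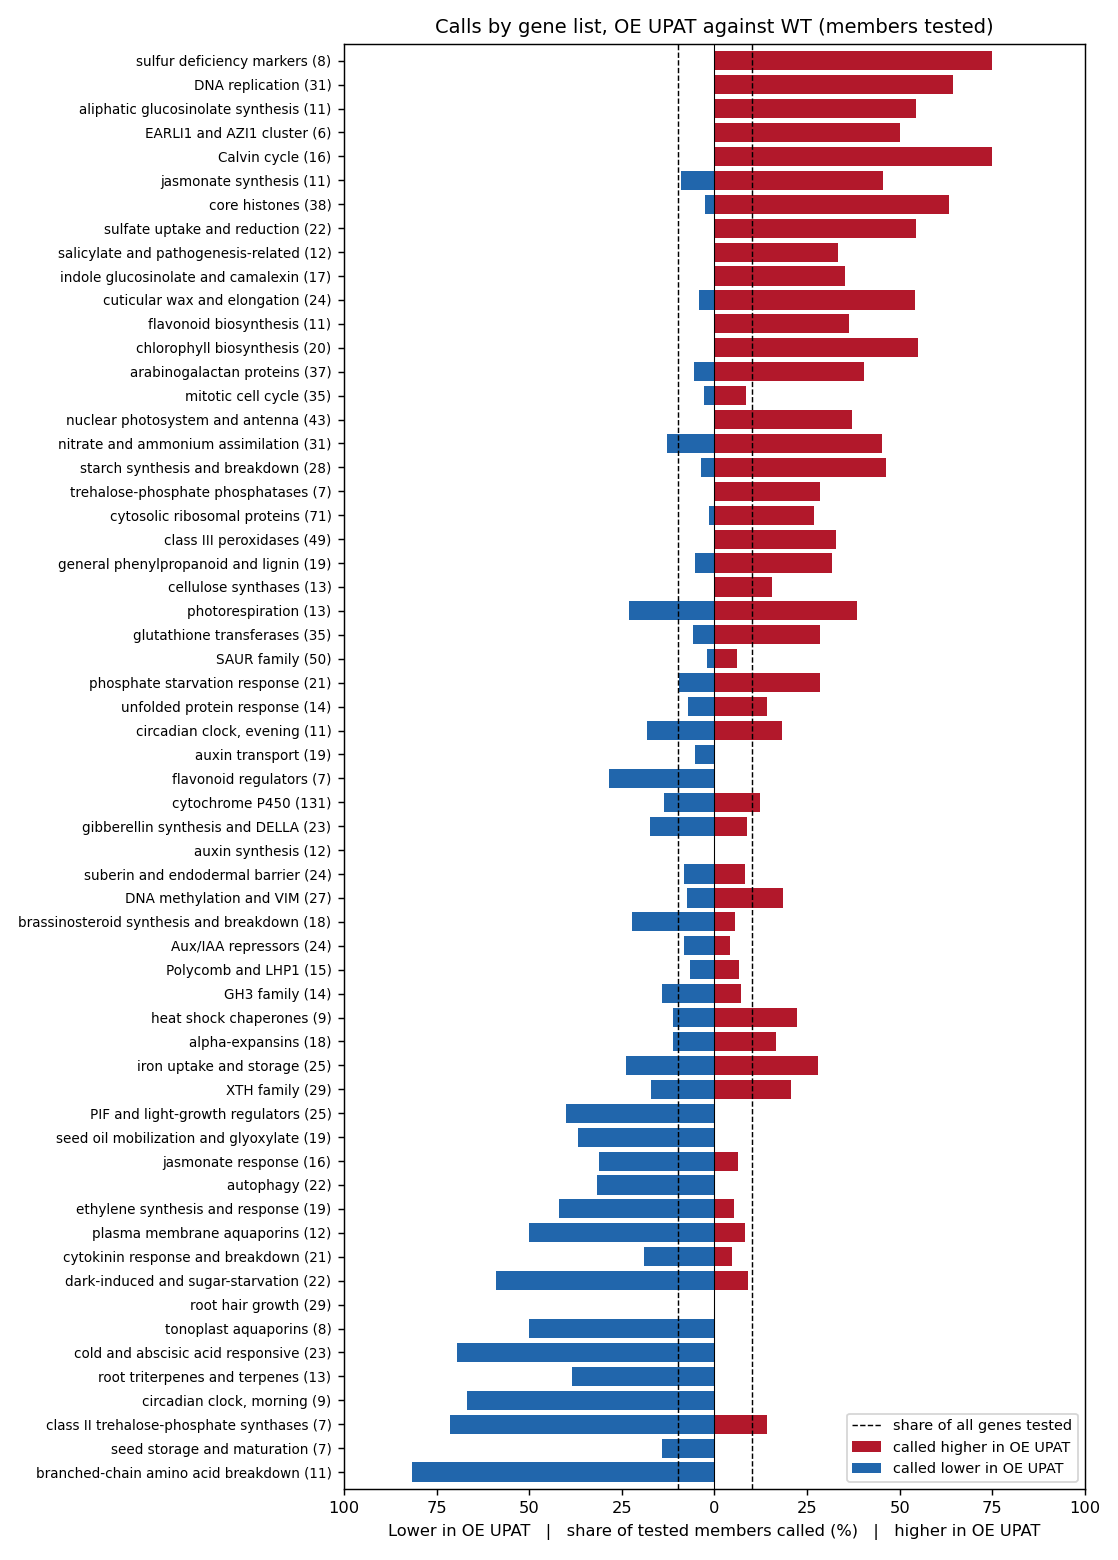
Share of the tested members of each gene list that was called higher (red, to the right) or lower (blue, to the left) in OE UPAT against WT, in percent, with the number of members tested in brackets and lists ordered by their median log2 fold change. Dashed lines mark the shares over all genes tested, 10.1% higher and 9.72% lower. Sulfur deficiency, Calvin cycle and replication lists reach furthest to the right, and breakdown of branched-chain amino acids, trehalose-phosphate synthases and cold and abscisic acid genes furthest to the left.

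The genes of sulfate uptake and reduction were higher in OE UPAT. Plants take up sulfate through SULTR transporters, activate it with ATP sulfurylase (APS), reduce it to sulfite with APS reductase (APR) and then to sulfide with sulfite reductase (SIR), and build the sulfide into cysteine. From sulfate uptake and reduction, 22 of 23 members passed the filter on low counts and the test called 12 (54.5%) higher and 0 lower (1 at an unadjusted p under 0.05 and 0 with DESeq2) in OE UPAT, with a median log2 fold change of 0.53. APR1 (AT4G04610, chromosome 4 from 2324878 to 2327064 on the plus strand), which catalyses the regulated step of the pathway, had 18.8, 19.8 and 21.3 CPM in OE UPAT A, B and C, against 5.18, 3.65 and 3.81 CPM in WT A, B and C. The 3 OE UPAT libraries lay well above WT, with a log2 fold change of 2.24 ± 0.14 (SE, FDR 3.71e-08). Log2 fold changes of 1.79 and 1.78 were measured for its paralogs APR2 and APR3. SULTR1;2 (AT1G78000, chromosome 1 from 29327515 to 29333220 on the plus strand), the main sulfate importer of the root, had 72.2, 62.1 and 67.9 CPM in OE UPAT A, B and C, against 20.3, 25.1 and 19.5 CPM in WT A, B and C. The rise of SULTR1;2 amounted to a log2 fold change of 1.64 ± 0.13 (SE, FDR 3.79e-07). APS1 (log2 fold change 0.97) and SIR (0.89) rose as well. SIR had 186 ± 10.8 CPM in OE UPAT and 99.8 ± 5.28 CPM in WT (SD, n = 3 each).

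Transcripts that mark sulfur deficiency moved in the same direction. In this list, 8 of 10 genes passed the filter, with 6 (75%) higher and 0 lower (0 at an unadjusted p under 0.05 and 0 with DESeq2) and a median log2 fold change of 1.93. AT5G26220 (GGCT2;1), which encodes an enzyme that recycles glutathione, had 3.29, 2.72 and 2.88 CPM in OE UPAT A, B and C, against 0.288, 0.276 and 0.467 CPM in WT A, B and C, a log2 fold change of 3.09 ± 0.34 (SE, FDR 6.75e-06). SDI2 (AT1G04770), a relative of a repressor of glucosinolate synthesis, had 23.2 ± 1.5 CPM in OE UPAT and 6.75 ± 0.798 CPM in WT (SD, n = 3 each) and rose by 1.78 on the log2 scale. LSU1 and LSU2, small proteins induced by low sulfur, rested on few reads. LSU2 had 2.68 ± 0.349 CPM in OE UPAT and 0.623 ± 0.209 CPM in WT (SD, n = 3 each), and LSU1 1.53 ± 0.472 CPM in OE UPAT and 0.311 ± 0.0923 CPM in WT (SD, n = 3 each). The log2 fold changes were 2.08 and 2.25, and the call of LSU1 was lost without OE UPAT B, without WT C and with all libraries thinned to the smallest total (FDR up to 0.0168). The marker SDI1 did not pass the threshold, with 2.13 ± 1.38 CPM in OE UPAT and 1.24 ± 0.605 CPM in WT (SD, n = 3 each) (FDR 0.286). Of the 8 markers tested, 5 were also higher than in the libraries labelled OE APOLO, against 8.49% of all genes tested. Of the genes called against WT, 56.7% were called in this second comparison, which shares the OE UPAT libraries. Against WT, the libraries labelled OE APOLO were themselves higher for AT5G26220, SDI2 and SHM7 of this list. The log2 fold changes there were 1.66, 0.56 and 0.52 (FDR 0.00853, 0.00547 and 0.00231), while LSU1, LSU2 and SDI1 did not pass the threshold.

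**Figure D2:**
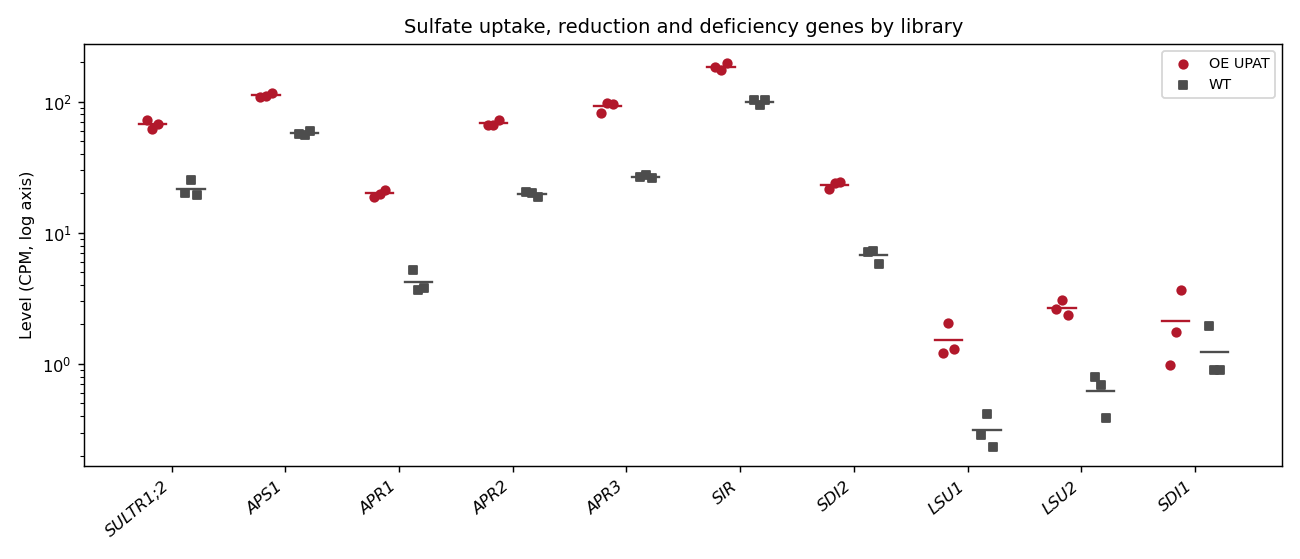
Level of 10 genes of sulfate uptake, reduction and sulfur deficiency in each library (CPM, logarithmic axis). Red circles are the OE UPAT libraries A, B and C, grey squares the WT libraries, and lines the means of 3. The groups are apart for every gene shown except SDI1.

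Glucosinolates are sulfur-rich defence compounds, and part of their synthesis was also higher. In the aliphatic branch, the test found 6 (54.5%) higher and 0 lower (0 at an unadjusted p under 0.05 and 0 with DESeq2) among the 11 tested of 25 members, with a median log2 fold change of 0.67. MYB28, the main activator of this branch, had 15.7 ± 1.43 CPM in OE UPAT and 8.49 ± 0.769 CPM in WT (SD, n = 3 each) and rose by 0.88 on the log2 scale. The chain-elongation gene IMD1 had 1.86, 2.29 and 2.36 CPM in OE UPAT A, B and C, against 0.108, 0.207 and 0.0778 CPM in WT A, B and C. A count of 3, taken as the floor of detection, corresponds to 0.207 to 0.233 CPM in WT, so that every WT library lay at or under the floor for this gene and no fold is given. MAM3 (IMS2, AT5G23020) of the same cycle had 2.52, 2.51 and 3.27 CPM in OE UPAT A, B and C, against 0.432, 0.276 and 0.156 CPM in WT A, B and C. The committing cytochrome P450 gene CYP79F1 was too low to be tested. In the indole branch, 17 of 20 members could be tested, with 6 (35.3%) higher and 0 lower (3 at an unadjusted p under 0.05 and 0 with DESeq2) in OE UPAT (median log2 fold change 0.46). CYP83B1 (AT4G31500, chromosome 4 from 15273410 to 15275404 on the minus strand), which channels an indole oxime into this branch, had 67.5, 70.3 and 73.6 CPM in OE UPAT A, B and C, against 23.7, 28.7 and 22 CPM in WT A, B and C. That is a log2 fold change of 1.50 ± 0.13 (SE, FDR 8.17e-07). GGP1, GSTF10 and SOT16 rose by 1.05, 1.03 and 0.64. Among glutathione transferases, which attach the sulfur-containing peptide glutathione to small molecules, 35 of 47 members were tested, with 10 (28.6%) higher and 2 (5.71%) lower in OE UPAT around a median log2 fold change of 0.12. GSTF7 rose by 1.75, and GSTU7 fell by 0.74 on the log2 scale. GSTF7 had fractional counts, so that its reads may be divided with a close copy and its level is uncertain.

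Genes that plants switch on in darkness and sugar starvation were lower in OE UPAT. In this list, 22 of 23 genes passed the filter, with 2 (9.09%) higher and 13 (59.1%) lower and a median log2 fold change of -0.37. ASN1 (AT3G47340, chromosome 3 from 17437840 to 17441431 on the minus strand), which makes asparagine as a nitrogen store when carbon is short, had 576, 647 and 571 CPM in OE UPAT A, B and C, against 2157, 1916 and 2124 CPM in WT A, B and C. The OE UPAT libraries held less than all WT libraries, with a log2 fold change of -1.79 ± 0.08 (SE, FDR 2.85e-09). SEN1, a marker of dark-induced senescence, had 721, 897 and 677 CPM in OE UPAT A, B and C, against 2430.0, 2148 and 2447 CPM in WT A, B and C. SEN1 fell by 1.61 in log2 units. DIN10, a raffinose synthase-like gene, changed much less, with a log2 fold change of -0.40 ± 0.08 (SE, FDR 0.0016), and lost its call without OE UPAT A (FDR up to 0.0104). Members that rose were MIOX4 (log2 fold change 0.98) and MIOX2 (0.34), which oxidize myo-inositol. The call of MIOX2 was lost without WT A and without WT B (FDR up to 0.0113).

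The breakdown of leucine, isoleucine and valine feeds mitochondrial respiration when sugar is short. In this pathway, the test found 0 higher (0 at an unadjusted p under 0.05 and 0 with DESeq2) and 9 (81.8%) lower among all 11 members, with a median log2 fold change of -0.99. BCAT-2, the aminotransferase of the first step, is a member of both this list and the preceding one and fell by 1.89 on the log2 scale. AT1G21400, a subunit of the branched-chain 2-oxoacid dehydrogenase of the next step, had 144, 166 and 149 CPM in OE UPAT A, B and C, against 555, 505 and 559 CPM in WT A, B and C. IVD (AT3G45300, chromosome 3 from 16621452 to 16625043 on the minus strand), the dehydrogenase of the leucine branch, had 86, 92.8 and 86.5 CPM in OE UPAT A, B and C, against 253, 229.7 and 243 CPM in WT A, B and C. MCCA (AT1G03090, chromosome 1 from 739544 to 744184 on the plus strand), a subunit of methylcrotonyl-CoA carboxylase, had 249.8, 259.8 and 224 CPM in OE UPAT A, B and C, against 711, 698 and 710.2 CPM in WT A, B and C. These 3 genes fell by 1.82, 1.45 and 1.53 on the log2 scale (FDR 2.85e-09, 3.83e-09 and 4.37e-09). All 9 called members were also lower than in the libraries labelled OE APOLO, where 9.36% of all genes were called lower. Of the genes called against WT, 56.7% were called in this second comparison, which shares the OE UPAT libraries. The libraries labelled OE APOLO were themselves lower than WT for the 4 members named. BCAT-2, AT1G21400, IVD and MCCA had log2 fold changes of -0.86, -0.62, -0.55 and -0.44 there (FDR 0.00107 or less).

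**Figure D3:**
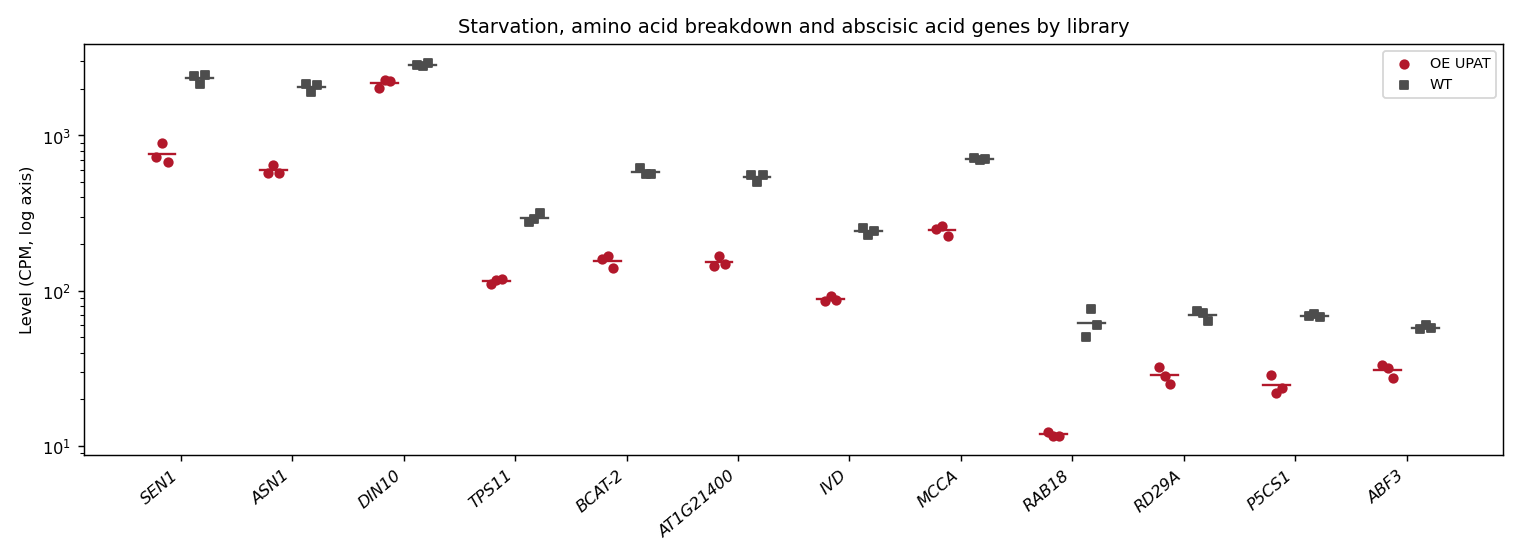
Level of genes of starvation, branched-chain amino acid breakdown and abscisic acid response in each library (CPM, logarithmic axis). Red circles are the OE UPAT libraries, grey squares the WT libraries, and lines the means of 3. Every OE UPAT library lies under all WT libraries for the 12 genes shown.

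Further groups tied to carbon supply followed. Class II trehalose-phosphate synthases are regulatory proteins of sugar signalling, and of these all 7 members could be tested, with 1 (14.3%) higher and 5 (71.4%) lower in OE UPAT (median log2 fold change -0.58). TPS11 (AT2G18700, chromosome 2 from 8108898 to 8112010 on the plus strand) had 110.0, 117 and 118 CPM in OE UPAT A, B and C, against 277, 289 and 316 CPM in WT A, B and C. Its paralogs TPS8 and TPS9 fell by 0.67 and 0.61 on the log2 scale, and TPS11 fell by 1.35. TPS11 is also a member of the starvation list above and was counted among the lower calls there. TPS5 went the other way, with a log2 fold change of 0.57 ± 0.13 (SE, FDR 0.00316), a call lost without OE UPAT A, without OE UPAT B and without WT A (FDR up to 0.0202). Autophagy recycles cell contents, and here all 22 members were tested, with 0 higher (0 at an unadjusted p under 0.05 and 0 with DESeq2) and 7 (31.8%) lower in OE UPAT around a median log2 fold change of -0.29. The ATG8 proteins coat the membrane of the forming vesicle. ATG8F had 117 ± 5.05 CPM in OE UPAT and 188 ± 10.3 CPM in WT (SD, n = 3 each), and ATG8E 112 ± 7.57 CPM in OE UPAT and 171 ± 6.61 CPM in WT (SD, n = 3 each). ATG8B, ATG5, ATG8F and ATG8E fell by 0.90, 0.76, 0.68 and 0.60 on the log2 scale. By symbol, ATG genes were also among the 5 families with the largest share of lower calls, of 125 families with at least 10 genes tested (7 of 19 lower, 36.8%). Further families among them were CAT (4 of 10, 40%, which takes in both catalases and cationic amino acid transporters), ALDH aldehyde dehydrogenases (5 of 14, 35.7%, with 3 of 14 or 21.4% higher and a median log2 fold change of -0.06) and TLP (4 of 12, 33.3%, mostly tubby-like proteins). ALDH7B4 fell by 1.30 and ALDH2B7 fell by 0.90 on the log2 scale, while ALDH2C4 rose by 0.59. Genes that turn seed oil into sugar were partly lower, as 19 of 20 genes passed the filter, with 0 higher (1 at an unadjusted p under 0.05 and 0 with DESeq2) and 7 (36.8%) lower and a median log2 fold change of -0.21. ICL, isocitrate lyase of the glyoxylate cycle, had 66.3, 67.7 and 54.1 CPM in OE UPAT A, B and C, against 178, 150.2 and 142 CPM in WT A, B and C, a log2 fold change of -1.32 ± 0.21 (SE, FDR 0.000237). Its partner MLS had 30.5 ± 5.35 CPM in OE UPAT and 41.3 ± 3.27 CPM in WT (SD, n = 3 each) and did not pass the threshold (FDR 0.0473), nor did PCK1 (FDR 0.112).

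Genes of the response to abscisic acid (ABA), cold and drought were lower in OE UPAT as a group. In this list, the test found 0 higher (0 at an unadjusted p under 0.05 and 0 with DESeq2) and 16 (69.6%) lower among the 23 tested of 27 members, with a median log2 fold change of -0.53. RAB18 (AT5G66400, chromosome 5 from 26518277 to 26519447 on the minus strand), a dehydrin that accumulates with ABA, had 12.4, 11.5 and 11.6 CPM in OE UPAT A, B and C, against 50.4, 75.8 and 59.9 CPM in WT A, B and C. The OE UPAT libraries differed little among themselves, and the change was a log2 fold change of -2.39 ± 0.24 (SE, FDR 3.74e-06). RD29A had 32.1, 28.3 and 25.1 CPM in OE UPAT A, B and C, against 74.5, 72 and 63.6 CPM in WT A, B and C, and P5CS1, the enzyme of proline synthesis, had 28.7, 21.8 and 23.6 CPM in OE UPAT A, B and C, against 68.9, 71 and 67.8 CPM in WT A, B and C. ABF3, a transcription factor of ABA signalling, had 33.2, 31.6 and 27.2 CPM in OE UPAT A, B and C, against 56.6, 59.9 and 57.2 CPM in WT A, B and C. These genes fell by 1.29, 1.49 and 0.91 on the log2 scale. CYP707A2, which breaks ABA down, was itself lower and fell by 2.18 on the log2 scale. Water channels of the plasma membrane were partly lower, as all 12 members could be tested, with 1 (8.33%) higher and 6 (50%) lower in OE UPAT (median log2 fold change -0.31). Against 7 calls in all, the count was 4 without OE UPAT C and 4 without WT B. PIP1C, PIP2A, PIP1B and PIP1A fell by 0.65, 0.42, 0.39 and 0.42 on the log2 scale. Of the tonoplast family, 8 of 10 members were tested, with 0 higher (0 at an unadjusted p under 0.05 and 0 with DESeq2) and 4 (50%) lower in OE UPAT around a median log2 fold change of -0.47. BETA-TIP and TIP3;1, known from protein storage vacuoles of seeds, had the largest folds of that family. BETA-TIP had 0.658, 1.42 and 0.524 CPM in OE UPAT A, B and C, against 5.76, 7.85 and 6.61 CPM in WT A, B and C, a log2 fold change of -2.92 ± 0.34 (SE, FDR 1.25e-05). The summed seed markers given above were lower in each OE UPAT library than in each WT library, and their part in these results was not tested.

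The ABA response element (ABRE) was searched as the letters ACGTGGC or ACGTGTC on both strands of the 300 bases before each annotated gene start (RefSeq, TAIR10.1). It was found before 7 of 23 genes of the ABA and cold list (30.4%) and before 1592 of 19882 tested genes in all (8.01%). Of the 16 members called lower, 4 held a match. The G-box CACGTG was found before 1 of 22 starvation genes (4.55%) and 0 of 11 genes of branched-chain amino acid breakdown, against 8.02% of all genes. RD29A, ABF3 and P5CS1 had no ABRE letters in this window, and SEN1, BCAT-2, IVD, MCCA, TPS11 and DIN10 no G-box. The element ACTCAT was found before 2 of 22 starvation genes (9.09%) and 2 of 11 genes of branched-chain amino acid breakdown (18.2%), against 14.4% of all genes. The windows of RAB18 and ASN1 are shown because these are the genes with a match among those looked up, with the ABRE of RAB18 and the G-box of ASN1 in capitals.
RAB18, chr5:26519526-26519585, minus strand: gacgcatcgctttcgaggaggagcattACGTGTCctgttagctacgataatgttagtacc
ASN1, chr3:17441566-17441625, minus strand: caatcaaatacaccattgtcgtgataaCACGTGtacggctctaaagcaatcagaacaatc
The match of RAB18 lies 104 bases before the gene start and that of ASN1 161 bases before it.

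Genes of the Calvin cycle and of chlorophyll synthesis were higher in OE UPAT, and part of the photosystem genes was. For the Calvin cycle, which fixes carbon dioxide, all 16 genes passed the filter, with 12 (75%) higher and 0 lower (2 at an unadjusted p under 0.05 and 0 with DESeq2) and a median log2 fold change of 0.61. CFBP1 (fructose bisphosphatase of the plastid) had 550.0, 566 and 648 CPM in OE UPAT A, B and C, against 359, 301 and 354 CPM in WT A, B and C, and RPI3, a ribose 5-phosphate isomerase, had 258, 279 and 321 CPM in OE UPAT A, B and C, against 154, 127 and 164 CPM in WT A, B and C. The log2 fold changes were 0.80 and 0.95, and those of SBPASE and FBA1 0.76 and 0.78. PRK did not pass the threshold (FDR 0.178), and RCA, the activase of Rubisco, had a log2 fold change of 0.43 ± 0.11 (SE, FDR 0.00704), a call that was lost without OE UPAT B, without OE UPAT C, without WT A and without WT B (FDR up to 0.0597). In chlorophyll synthesis, the test found 11 (55%) higher and 0 lower (1 at an unadjusted p under 0.05 and 1 with DESeq2) among all 20 members, with a median log2 fold change of 0.42. DVR (AT5G18660, chromosome 5 from 6220710 to 6222300 on the minus strand), a reductase of a late step, had 80.5, 86.3 and 105 CPM in OE UPAT A, B and C, against 37.1, 32.9 and 32.7 CPM in WT A, B and C. Its log2 fold change was 1.40 ± 0.09 (SE, FDR 6.66e-08), and PORC, GSA2 and PORB of the same list rose by 1.07, 1.02 and 0.86. HEMA1, which controls the entry into the pathway, had 167 ± 14.7 CPM in OE UPAT and 166 ± 16.7 CPM in WT (SD, n = 3 each). In the photosystems and antennae, all 43 members could be tested, with 16 (37.2%) higher and 0 lower (2 at an unadjusted p under 0.05 and 0 with DESeq2) in OE UPAT (median log2 fold change 0.29). Against 16 calls in all, the count was 9 without OE UPAT C. PSBTN, PSBQA, CAB3 and RBCS2B rose by 0.70, 0.67, 0.67 and 0.81, the last 2 from families of close copies and with fractional counts. Of 296 genes encoded in plastids and mitochondria, 135 passed the filter and 4 were called, all higher (2.96%, under the share of all genes), while the median log2 fold change was -0.37 and 9 were lower against 4 higher at an unadjusted p under 0.05. DESeq2 called 4 higher and 1 lower. The test called 15 when only the 6 libraries were fitted, 2 without WT A or WT B and 0 without WT C, and all 4 calls (ATCG00930, ATCG00940, ATCG01190 and ATCG01200) were lost without OE UPAT C. These 4 genes had fractional counts. Levels of ATCG00930 and ATCG01200 were nearly equal in each library, as were those of ATCG00940 and ATCG01190. Reads may be divided within each pair, so that the 4 calls may not be separate results. In photorespiration, all 13 members were tested, with 5 (38.5%) higher and 3 (23.1%) lower in OE UPAT around a median log2 fold change of 0.14. The subunits of glycine decarboxylase GLDP1, GDCH and GLDT1 rose by 0.61, 0.59 and 0.53, while GGT1, CAT2 and GLYK fell by 0.51, 0.57 and 0.44 on the log2 scale. Of 7 green shoot markers tested, RBCS1A and RCA were called higher (28.6%, with 0 called without OE UPAT C), and the part of shoot tissue in these results was not tested.

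Nearly all called starch genes were higher as well. For starch, all 28 genes passed the filter, with 13 (46.4%) higher and 1 (3.57%) lower and a median log2 fold change of 0.26. Against 14 calls in all, the count was 9 without OE UPAT C. The cytosolic glucan phosphorylase PHS2 had 379 ± 25.2 CPM in OE UPAT and 232 ± 9.08 CPM in WT (SD, n = 3 each) and rose by 0.71, and PGM1, SEX4 and DPE2 rose by 0.61, 0.63 and 0.47. BAM4, a plastid protein needed for normal starch breakdown, had 47.3, 47.9 and 44.5 CPM in OE UPAT A, B and C, against 117, 102 and 114 CPM in WT A, B and C, and fell by 1.25 on the log2 scale. By symbol, the 5 families with the largest share of higher calls were FLA (10 of 14, 71.4%), RPL (13 of 21, 61.9%), CRR and ENODL (5 of 11 each, 45.5%) and KCS (7 of 16, 43.8%). The RPL symbols include proteins of the large ribosomal subunit in plastids, such as RPL9, RPL27 and RPL15, which rose by 0.60, 0.71 and 0.53, and cytosolic ones such as RPL23AA (0.33). CRR genes act on the plastid NADH dehydrogenase-like complex or on editing of its transcripts, and CRR7 and CRR21 rose by 0.88 and 0.76. Among cytosolic ribosomal proteins, the test found 19 (26.8%) higher and 1 (1.41%) lower among the 71 tested of 84 members, with a median log2 fold change of 0.25. Against 20 calls in all, the count was 31 with the 6 libraries alone, 8 without OE UPAT B, 11 without OE UPAT C, 11 without WT B and 11 without WT C. Against the libraries labelled OE APOLO, 52 of these 71 genes were higher in OE UPAT, where 8.49% of all genes were.

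Most called nitrogen genes were higher, and the share called lower lay near that of all genes (9.72%). In nitrate and ammonium assimilation, 31 of 34 members could be tested, with 14 (45.2%) higher and 4 (12.9%) lower in OE UPAT (median log2 fold change 0.28). NRT1.1 (AT1G12110, chromosome 1 from 4105223 to 4109601 on the plus strand), the nitrate transceptor, had 167, 158 and 168 CPM in OE UPAT A, B and C, against 70.7, 75 and 74.4 CPM in WT A, B and C. NIR1, nitrite reductase, had 196, 202 and 229 CPM in OE UPAT A, B and C, against 105, 87.8 and 103 CPM in WT A, B and C. Both rose, by 1.16 and 1.08 on the log2 scale, together with GLN1;2 of glutamine synthesis (1.14) and UPM1, which makes the siroheme cofactor shared by nitrite and sulfite reductases (1.07). Nitrate reductases went the other way. NIA1 had 1169 ± 62.9 CPM in OE UPAT and 1686 ± 155 CPM in WT (SD, n = 3 each) and fell by 0.53 on the log2 scale, and NIA2 fell by 0.46.

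The genes of DNA replication were higher in OE UPAT. In replication, 31 of 32 members were tested, with 20 (64.5%) higher and 0 lower (1 at an unadjusted p under 0.05 and 0 with DESeq2) in OE UPAT around a median log2 fold change of 0.94. PCNA1, the sliding clamp of the polymerase, had 9.43, 8.5 and 7.46 CPM in OE UPAT A, B and C, against 2.37, 3.58 and 3.03 CPM in WT A, B and C, a log2 fold change of 1.50 ± 0.20 (SE, FDR 3.68e-05). MCM3 (AT5G46280, chromosome 5 from 18769649 to 18773706 on the minus strand), a subunit of the replicative helicase, had 12.7, 13.3 and 14.4 CPM in OE UPAT A, B and C, against 6.4, 4.13 and 4.04 CPM in WT A, B and C, and MCM2 had 17.1, 14.6 and 15.6 CPM in OE UPAT A, B and C, against 6.19, 7.72 and 5.83 CPM in WT A, B and C. MCM2, MCM3, MCM5 and MCM7 rose by 1.26, 1.46, 1.14 and 1.14. RNR1 and TSO2, the subunits of ribonucleotide reductase, rose by 1.03 and 0.94. Core histones package the new DNA, and of these 38 of 46 genes passed the filter, with 24 (63.2%) higher and 1 (2.63%) lower and a median log2 fold change of 0.55. The H3 genes AT1G09200, AT5G10400 and AT5G65360 rose by 1.30, 1.29 and 1.05, and HTA9, an H2A.Z variant, fell by 0.55 on the log2 scale. AT5G65360 had fractional counts in 4 libraries, so that its reads may be divided with a close copy. Calls of such copies may not be separate results. In mitosis, the test found 3 (8.57%) higher and 1 (2.86%) lower among all 35 members, with a median log2 fold change of 0.31. Against 4 calls in all, the count was 1 with DESeq2, 7 with no filter on low counts, 8 with the 6 libraries alone, 2 without OE UPAT B, 2 without OE UPAT C, 1 without WT A and 2 without WT B. CDKB2;1, CYCB1;1 and KNOLLE had 10.5 ± 1.16 CPM in OE UPAT and 8.05 ± 0.426 CPM in WT (SD, n = 3 each), 2.29 ± 0.572 CPM in OE UPAT and 1.88 ± 0.836 CPM in WT (SD, n = 3 each) and 13.1 ± 0.742 CPM in OE UPAT and 8.91 ± 0.851 CPM in WT (SD, n = 3 each). These 3 genes did not pass (FDR 0.0487, 0.516 and 0.0147). Replication and mitosis were not tested against each other.

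**Figure D4:**
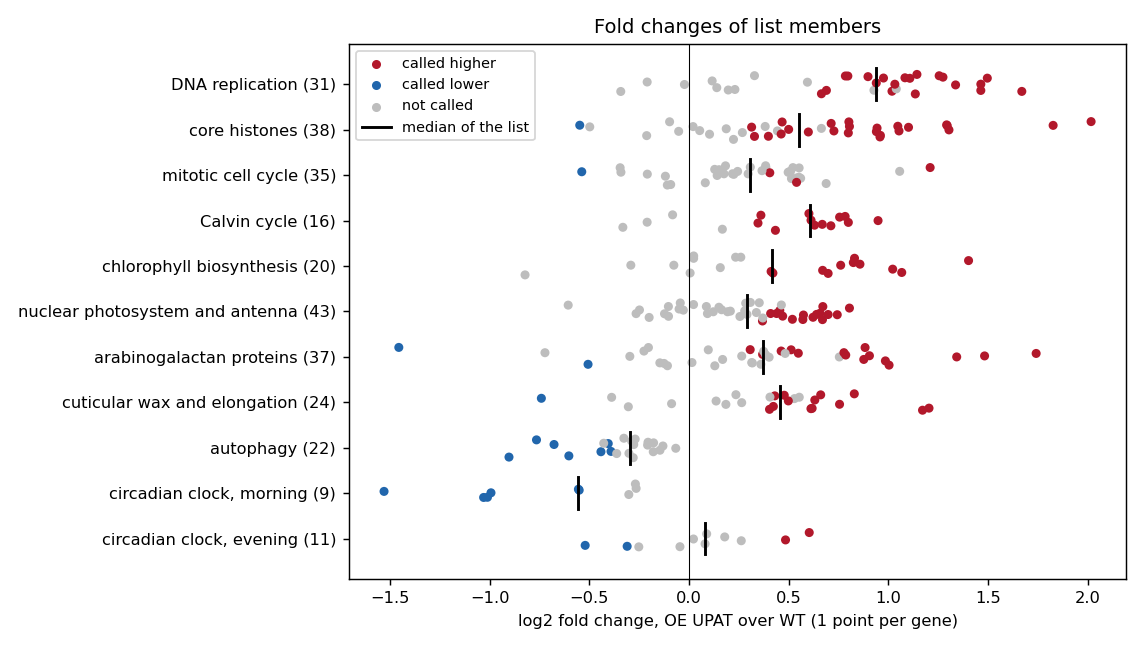
Log2 fold change of OE UPAT over WT for each tested member of 11 gene lists (1 point per gene, vertical scatter for legibility only), with the number of members in brackets. Points are red where called higher, blue where called lower and grey where not called, and black bars are list medians. Medians lie at 0.94 for DNA replication, 0.55 for core histones and 0.31 for mitosis, and at -0.56 for the morning genes of the clock.

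E2F transcription factors are known to control replication genes, and their site was searched as TTCCCGC (with the variants TTGGCGC and also TTGCCGC and lastly TTCGCGC) on both strands of the 300 bases before the gene starts. It was found before 13 of 31 replication genes (41.9%), 6 of 38 histone genes (15.8%) and 2 of 35 mitosis genes (5.71%), against 646 of 19882 genes in all (3.25%). Of the 20 replication genes called higher, 11 held a match, among them MCM2, MCM3 and MCM5. PCNA1, MCM7, RNR1 and TSO2 had none of these letters in this window. Windows of 60 bases are shown for the helicase subunits that carry the letters, which are in capitals.
MCM2, chr1:16970154-16970213, plus strand: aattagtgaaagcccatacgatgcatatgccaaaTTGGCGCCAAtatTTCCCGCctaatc
MCM3, chr5:18773736-18773795, minus strand: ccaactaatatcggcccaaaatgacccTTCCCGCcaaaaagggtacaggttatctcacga
MCM5, chr2:3527501-3527560, minus strand: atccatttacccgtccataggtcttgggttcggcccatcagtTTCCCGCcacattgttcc
In MCM2, the run of 10 capitals holds overlapping matches on both strands. Site II (TGGGCC) was found before 37 of 71 cytosolic ribosomal protein genes (52.1%) and before 17.5% of all genes, and the telo-box AAACCCT before 15 of 71 (21.1%) against 7.53%. The core GGAGAC or GAGACA of the sulfur-responsive element was found before 3 of 22 genes of sulfate uptake and reduction (13.6%), 0 of them among the 12 called higher, and before 3 of 8 sulfur deficiency markers (37.5%), against 16.1% of all genes. The G-box was found before 3 of 25 regulators of light-dependent growth (12%).

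Some genes that set or keep DNA methylation were called. In this list, 27 of 29 members could be tested, with 5 (18.5%) higher and 2 (7.41%) lower in OE UPAT (median log2 fold change 0.02). Against 7 calls in all, the count was 4 without OE UPAT A, 4 without OE UPAT C and 4 without WT A. DDM1, a chromatin remodeler needed for maintenance of methylation, had 7.46, 6.64 and 7.72 CPM in OE UPAT A, B and C, against 3.31, 3.86 and 3.34 CPM in WT A, B and C, a log2 fold change of 1.05 ± 0.17 (SE, FDR 0.000288). MET1, the maintenance methyltransferase, had 37.4, 34.4 and 35.6 CPM in OE UPAT A, B and C, against 24.4, 24.7 and 20.6 CPM in WT A, B and C. CMT3, of the plant-specific CHG pathway, had 13.3 ± 1.45 CPM in OE UPAT and 7.05 ± 1.35 CPM in WT (SD, n = 3 each). MET1 and CMT3 were called (FDR 7.62e-05 and 0.00113). DRM2, the de novo methyltransferase, fell by 0.49 on the log2 scale, and CLSY2 fell by 1.25, which 8 of 13 alternatives did not call. VIM1 varied in WT, with 13.9, 11 and 13.3 CPM in OE UPAT A, B and C, against 51.2, 13.2 and 20.2 CPM in WT A, B and C, and its difference did not pass the threshold (FDR 0.0917). Among Polycomb genes, 2 of 15 tested of 19 members were called, 6.67% in each direction and under the shares of all genes. SWN was lower (log2 fold change -0.31) and MSI4 higher (0.29). DESeq2 called 0 of the 15, and the calls of SWN and MSI4 were lost in 10 and 9 of 13 alternatives. CLF and LHP1 did not pass the threshold (FDR 0.0618 and 0.0582).

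Among cell wall and surface families, calls were mostly higher or went in both directions. Fasciclin-like (FLA) and classical arabinogalactan proteins are sugar-rich proteins of the wall and membrane, and 37 of 49 members were tested, with 15 (40.5%) higher and 2 (5.41%) lower in OE UPAT around a median log2 fold change of 0.37. AGP18 had 34.8, 39.1 and 39.8 CPM in OE UPAT A, B and C, against 13.2, 15.5 and 11.8 CPM in WT A, B and C, and FLA1 had 27.1, 29.7 and 26.4 CPM in OE UPAT A, B and C, against 11.7, 10.8 and 10.3 CPM in WT A, B and C. FLA8 (AT2G45470, chromosome 2 from 18742477 to 18744322 on the minus strand) had 350.1, 351 and 385 CPM in OE UPAT A, B and C, against 179, 177 and 186 CPM in WT A, B and C. The log2 fold changes were 1.48, 1.34 and 1.00. FLA6 fell by 1.46 and AGP14 fell by 0.51 on the log2 scale. XTH enzymes cut and rejoin xyloglucan, and among them 29 of 33 genes passed the filter, with 6 (20.7%) higher and 5 (17.2%) lower and a median log2 fold change of -0.15. XTH9, XTH8, XTH4 and XTH16 rose by 1.23, 0.79, 0.67 and 0.65, while XTH25, XTH15 and XTH31 fell by 1.50, 1.04 and 0.94 on the log2 scale. Among alpha-expansins, which loosen walls, the test found 3 (16.7%) higher and 2 (11.1%) lower among the 18 tested of 26 members, with a median log2 fold change of -0.10. Against 5 calls in all, the count was 3 without OE UPAT B. EXPA5 had 19.2, 20.4 and 18.5 CPM in OE UPAT A, B and C, against 4.75, 6.27 and 3.58 CPM in WT A, B and C, a log2 fold change of 1.98 ± 0.16 (SE, FDR 5.19e-07). EXPA6 rose by 0.95 and EXPA9 fell by 0.54 on the log2 scale. For cellulose synthesis, all 13 members could be tested, with 2 (15.4%) higher and 0 lower (3 at an unadjusted p under 0.05 and 0 with DESeq2) in OE UPAT (median log2 fold change 0.14). Against 2 calls in all, the count was 4 with upper-quartile scaling, 4 with DESeq2, 4 with the 6 libraries alone, 1 without OE UPAT C, 1 without WT A, 1 without WT B and 1 without WT C. CESA5, a cellulose synthase subunit, rose by 0.89.

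In wax and cutin synthesis, 24 of 30 members were tested, with 13 (54.2%) higher and 1 (4.17%) lower in OE UPAT around a median log2 fold change of 0.45. BDG1 and CER8 act in the cuticle. BDG1 had 13.7, 16.9 and 19 CPM in OE UPAT A, B and C, against 6.04, 8.4 and 6.92 CPM in WT A, B and C, and CER8 (LACS1) had 159 ± 6.3 CPM in OE UPAT and 70.6 ± 3.3 CPM in WT (SD, n = 3 each). BDG1, CER8, LTPG1 and KCS20 rose by 1.20, 1.17, 0.76 and 0.66, and KCS2 fell by 0.74 on the log2 scale. CER1 and CUT1, enzymes of alkane formation and chain elongation, did not pass the threshold (FDR 0.117 and 0.0991). Class III peroxidases act in the wall, and of these 49 of 72 genes passed the filter, with 16 (32.7%) higher and 0 lower (3 at an unadjusted p under 0.05 and 0 with DESeq2) and a median log2 fold change of 0.20. The adjacent genes AT5G64110 and AT5G64120 stood out. AT5G64120 had 223, 250.2 and 327 CPM in OE UPAT A, B and C, against 58.1, 32.8 and 40.4 CPM in WT A, B and C, a log2 fold change of 2.61 ± 0.22 (SE, FDR 5.06e-07). AT5G64110 had 44.5, 40.4 and 65.8 CPM in OE UPAT A, B and C, against 14.1, 6.89 and 8.94 CPM in WT A, B and C. Prx37 rose by 2.25, and PRXCB, with fractional counts, rose by 1.67. In the list of suberin and endodermis, 4 of 24 tested genes were called, 8.33% in each direction and under the shares of all genes. CDEF1 and KCS20 were higher (1.95 and 0.66) and CASP5 and KCS2 lower (-1.19 and -0.74). KCS20 and KCS2 are also members of the wax list above. Root hair genes were not called, as the test found 0 higher (0 at an unadjusted p under 0.05 and 0 with DESeq2) and 0 lower (7 at an unadjusted p under 0.05 and 0 with DESeq2) among the 29 tested of 30 members, with a median log2 fold change of -0.39. With no filter on low counts 4 of them were called, with the 6 libraries alone 8, with the replicate letter as a block 2 and with thinned libraries 1. Of the root terpene list, 13 of 16 members could be tested, with 0 higher (1 at an unadjusted p under 0.05 and 0 with DESeq2) and 5 (38.5%) lower in OE UPAT (median log2 fold change -0.55). The TPS-CIN genes AT3G25820 and AT3G25830 are near-identical copies that hold fractional counts, and they fell by 2.72 and 2.74 on the log2 scale. CYP708A2 of the thalianol cluster fell by 1.08, while THAS1, which begins that pathway, did not pass the threshold (FDR 0.409).

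Phenylpropanoids and flavonoids changed at single steps. In the general and lignin branch, all 19 members were tested, with 6 (31.6%) higher and 1 (5.26%) lower in OE UPAT around a median log2 fold change of 0.17. Against 7 calls in all, the count was 4 without OE UPAT C and 4 without WT A. FAH1 (AT4G36220, chromosome 4 from 17137313 to 17139777 on the minus strand), ferulate 5-hydroxylase, had 66.5, 65.2 and 72.1 CPM in OE UPAT A, B and C, against 23.7, 28.2 and 28.8 CPM in WT A, B and C, a log2 fold change of 1.34 ± 0.10 (SE, FDR 1.41e-07). PAL1 and C4H, which begin the pathway, did not pass the threshold (FDR 0.0252 and 0.0917). In the flavonoid branch, 11 of 17 genes passed the filter, with 4 (36.4%) higher and 0 lower (0 at an unadjusted p under 0.05 and 0 with DESeq2) and a median log2 fold change of 0.42. FLS1, flavonol synthase, had 7.46, 7.3 and 10.5 CPM in OE UPAT A, B and C, against 3.89, 1.79 and 3.5 CPM in WT A, B and C, a log2 fold change of 1.45 ± 0.27 (SE, FDR 0.000689). FLS5 and UGT78D1 rose by 1.96 and 0.98. TT4, chalcone synthase, had 25.9, 25.9 and 43.8 CPM in OE UPAT A, B and C, against 15, 5.24 and 8.79 CPM in WT A, B and C, a log2 fold change of 1.71 ± 0.36 (SE, FDR 0.00182), and lost its call with DESeq2, without OE UPAT C and without WT C (FDR up to 0.02). TT5 and F3H did not pass the threshold (FDR 0.132 and 0.12), and DFR and LDOX of the anthocyanin branch were too low to be tested. Among the regulators, MYBL2, a repressor of this pathway, fell by 0.74 on the log2 scale. TTG1 was also lower, with a log2 fold change of -0.36, a call lost in 6 of 13 alternatives. MYB12 did not pass the threshold (FDR 0.343).

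Part of the regulators of light-dependent growth was lower. In this list, the test found 0 higher (2 at an unadjusted p under 0.05 and 0 with DESeq2) and 10 (40%) lower among the 25 tested of 26 members, with a median log2 fold change of -0.18. Against 10 calls in all, the count was 6 without OE UPAT A, 5 without OE UPAT C, 6 without WT B and 5 without WT C. HFR1 (AT1G02340, chromosome 1 from 465616 to 467880 on the minus strand), an inhibitor of PIF proteins, had 3.84, 2.61 and 2.62 CPM in OE UPAT A, B and C, against 9.86, 11.3 and 8.56 CPM in WT A, B and C, a log2 fold change of -1.70 ± 0.17 (SE, FDR 3.37e-06). PHYA, the far-red receptor, had 148, 144 and 134 CPM in OE UPAT A, B and C, against 230.0, 242 and 223 CPM in WT A, B and C. PHYA and PIF4 fell by 0.71 and 0.63 on the log2 scale. PIF5 fell by 0.31, a call lost without OE UPAT C and without WT C (FDR up to 0.0193). In the circadian clock, morning genes differed, as all 9 members could be tested, with 0 higher (0 at an unadjusted p under 0.05 and 0 with DESeq2) and 6 (66.7%) lower in OE UPAT (median log2 fold change -0.56). RVE4 had 109, 125 and 107 CPM in OE UPAT A, B and C, against 341, 299.7 and 346 CPM in WT A, B and C, and LNK2 had 114, 103 and 102 CPM in OE UPAT A, B and C, against 213, 217 and 214 CPM in WT A, B and C. RVE4, LNK2, CCA1 and PRR7 fell by 1.53, 1.01, 0.99 and 0.55 on the log2 scale, and LHY had 2.79 ± 0.599 CPM in OE UPAT and 3.46 ± 0.209 CPM in WT (SD, n = 3 each) (FDR 0.311). Among evening genes, all 11 members were tested, with 2 (18.2%) higher and 2 (18.2%) lower in OE UPAT around a median log2 fold change of 0.08. Against 4 calls in all, the count was 2 without WT C. PRR3 and ELF4 rose by 0.60 and 0.48, and BOA and ZTL were lower, with log2 fold changes of -0.52 and -0.31. The calls of BOA and ZTL were lost in 3 and 6 of 13 alternatives. GI and TOC1 did not pass the threshold (FDR 0.0829 and 0.0123). The time of harvest is not given in the sources used here for each library.

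Few auxin genes were called. Of 12 auxin synthesis genes tested of 15, edgeR called 0 and DESeq2 0, with 2 at an unadjusted p under 0.05 in edgeR. With 1 library left out, 1 was called without OE UPAT A or without WT B. YUC2 had 1.67 ± 0.427 CPM in OE UPAT and 1.61 ± 0.256 CPM in WT (SD, n = 3 each) and YUC8 3.69 ± 0.143 CPM in OE UPAT and 3.85 ± 0.216 CPM in WT (SD, n = 3 each). In the SAUR family, 50 of 79 genes passed the filter, with 3 (6%) higher and 1 (2%) lower and a median log2 fold change of 0.12, near or under the shares of all genes. AT5G50760 of this family rose by 1.03. Of the Aux/IAA repressors, 3 of 24 tested of 29 members were called (1 without OE UPAT A or OE UPAT B). The shares, 4.17% higher and 8.33% lower, lay under those of all genes, and IAA16 fell by 0.36 on the log2 scale. From the GH3 family of hormone-conjugating enzymes, the test found 1 (7.14%) higher and 2 (14.3%) lower among the 14 tested of 20 members, with a median log2 fold change of -0.01. BRU6 rose by 1.11, and WES1 and AT5G13370 fell by 0.45 and 0.55 on the log2 scale. In auxin transport, 19 of 21 members could be tested, with 0 higher (2 at an unadjusted p under 0.05 and 0 with DESeq2) and 1 (5.26%) lower in OE UPAT (median log2 fold change 0.07). Against 1 call in all, the count was 2 with upper-quartile scaling, 3 with the 6 libraries alone, 0 without OE UPAT B and 0 without OE UPAT C. For brassinosteroid synthesis and breakdown, all 18 members were tested, with 1 (5.56%) higher and 4 (22.2%) lower in OE UPAT around a median log2 fold change of 0.01. Against 5 calls in all, the count was 3 without OE UPAT A, 3 without OE UPAT C, 2 without WT A, 3 without WT B and 3 without WT C. CPD, a synthesis enzyme, had 148, 149 and 146 CPM in OE UPAT A, B and C, against 264, 230.3 and 256 CPM in WT A, B and C. CPD and ROT3 fell by 0.76 and 0.61 on the log2 scale, and DET2, a reductase of the same pathway, rose by 0.52, a call lost without WT A and without WT B (FDR up to 0.0122). In ethylene synthesis and response, 19 of 22 genes passed the filter, with 1 (5.26%) higher and 8 (42.1%) lower and a median log2 fold change of -0.31. Against 9 calls in all, the count was 4 without OE UPAT B and 5 without WT C. The receptor genes ERS2 and ERS1 fell by 1.31 and 0.67, and the transcription factor gene EIN3 fell by 0.43 on the log2 scale. For cytokinin response and breakdown, the test found 1 (4.76%) higher and 4 (19%) lower among the 21 tested of 28 members, with a median log2 fold change of -0.33. Against 5 calls in all, the count was 3 without OE UPAT B, 3 without WT A, 2 without WT B and 3 without WT C. KMD3 and KMD1, F-box proteins that target response regulators, fell by 0.99 and 0.75 on the log2 scale. ARR4 of the same list was called lower, a call lost in 6 of 13 alternatives (log2 fold change -0.39 to -0.23 over these 13). ARR5 (RR5) and ARR7 were not called, with log2 fold changes of -0.48 to -0.33 and -1.28 to -0.54 over the alternatives (FDR up to 0.136 and 0.185). CKX7, a cytokinin oxidase, rose by 0.68, a call lost without OE UPAT B, without OE UPAT C, without WT A, without WT B and with all libraries thinned to the smallest total (FDR up to 0.022). In gibberellin synthesis and signalling, 23 of 26 members could be tested, with 2 (8.7%) higher and 4 (17.4%) lower in OE UPAT (median log2 fold change 0.06). GA20OX2 fell by 1.14, GID1C fell by 0.46 and GA2OX8 rose by 1.44 on the log2 scale.

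Genes of jasmonate synthesis and of the jasmonate response were called in opposite directions. In synthesis, 11 of 13 members were tested, with 5 (45.5%) higher and 1 (9.09%) lower in OE UPAT around a median log2 fold change of 0.59. LOX2 (AT3G45140, chromosome 3 from 16525245 to 16529352 on the plus strand), a lipoxygenase of the plastid, had 11.3, 8.71 and 11.4 CPM in OE UPAT A, B and C, against 0.36, 1.1 and 0.778 CPM in WT A, B and C, a log2 fold change of 3.78 ± 0.26 (SE, FDR 9.53e-08). AOS, the next enzyme, had 44.7, 40.1 and 50.5 CPM in OE UPAT A, B and C, against 18.4, 16.8 and 21.3 CPM in WT A, B and C. AOS rose by 1.26, and AOC2, with fractional counts, rose by 0.89. In the response, 16 of 23 genes passed the filter, with 1 (6.25%) higher and 5 (31.2%) lower and a median log2 fold change of -0.29. Against 6 calls in all, the count was 3 without OE UPAT A, 2 without OE UPAT C, 3 without WT A, 3 without WT B and 2 without WT C. JAZ3 and JAZ9, repressors of the response, fell by 0.78 and 0.64 on the log2 scale, and VSP2, a common marker, had 1.23 ± 0.281 CPM in OE UPAT and 2.03 ± 0.214 CPM in WT (SD, n = 3 each) (FDR 0.0833). In the list of salicylate and pathogenesis-related genes, 4 of 12 tested of 19 were called, all higher (33.3%). Against 4 calls in all, the count was 2 without OE UPAT A, 2 without OE UPAT C, 2 without WT A, 2 without WT C and 1 with all libraries thinned to the smallest total. OSM34, osmotin, had 88.5, 110.3 and 122 CPM in OE UPAT A, B and C, against 36.9, 25.7 and 26.5 CPM in WT A, B and C, a log2 fold change of 1.84 ± 0.15 (SE, FDR 3.25e-07). PR1 did not pass the threshold (FDR 0.367). The call of PAD4 was lost in 5 of 13 alternatives, and that of PR5 in 5 of the 11 that gave it a result. EARLI1, a lipid-transfer-like protein, had 25.5, 35.9 and 46.7 CPM in OE UPAT A, B and C, against 1.65, 0.723 and 1.17 CPM in WT A, B and C, and AZI1, its neighbour, had 90.4, 101 and 103 CPM in OE UPAT A, B and C, against 55.3, 67.9 and 64.4 CPM in WT A, B and C. EARLI1 rose by 4.93 and AZI1 by 0.65.

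Iron genes were called in both directions. Plants without enough iron induce 4 bHLH genes of subgroup Ib, whose products pair with FIT1 to activate uptake. From iron uptake and storage, the test found 7 (28%) higher and 6 (24%) lower among the 25 tested of 28 members, with a median log2 fold change of -0.12. BHLH101 (AT5G04150, chromosome 5 from 1138410 to 1139633 on the minus strand) had 3.18, 3.49 and 2.09 CPM in OE UPAT A, B and C, against 13.4, 16 and 17.3 CPM in WT A, B and C, a log2 fold change of -2.39 ± 0.19 (SE, FDR 3.6e-07). BHLH038, BHLH039 and BHLH100 fell by 2.00, 0.93 and 1.17 on the log2 scale, the last with its call lost without OE UPAT B (FDR up to 0.0118). FIT1 had 6.69, 7.52 and 7.59 CPM in OE UPAT A, B and C, against 2.3, 2.14 and 3.66 CPM in WT A, B and C, a log2 fold change of 1.43 ± 0.21 (SE, FDR 8.9e-05). NAS1, which makes the metal chelator nicotianamine, had 13.9, 14.1 and 16.9 CPM in OE UPAT A, B and C, against 4.25, 3.1 and 4.43 CPM in WT A, B and C. NAS1, F6'H1 and FER3 rose by 1.93, 1.57 and 0.92. The transporter IRT1 had 6.88 ± 1.17 CPM in OE UPAT and 3.92 ± 1.64 CPM in WT (SD, n = 3 each) and the reductase FRO2 2.47 ± 0.244 CPM in OE UPAT and 1.21 ± 0.292 CPM in WT (SD, n = 3 each), and neither passed the threshold (FDR 0.0454 and 0.0106).

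**Figure D5:**
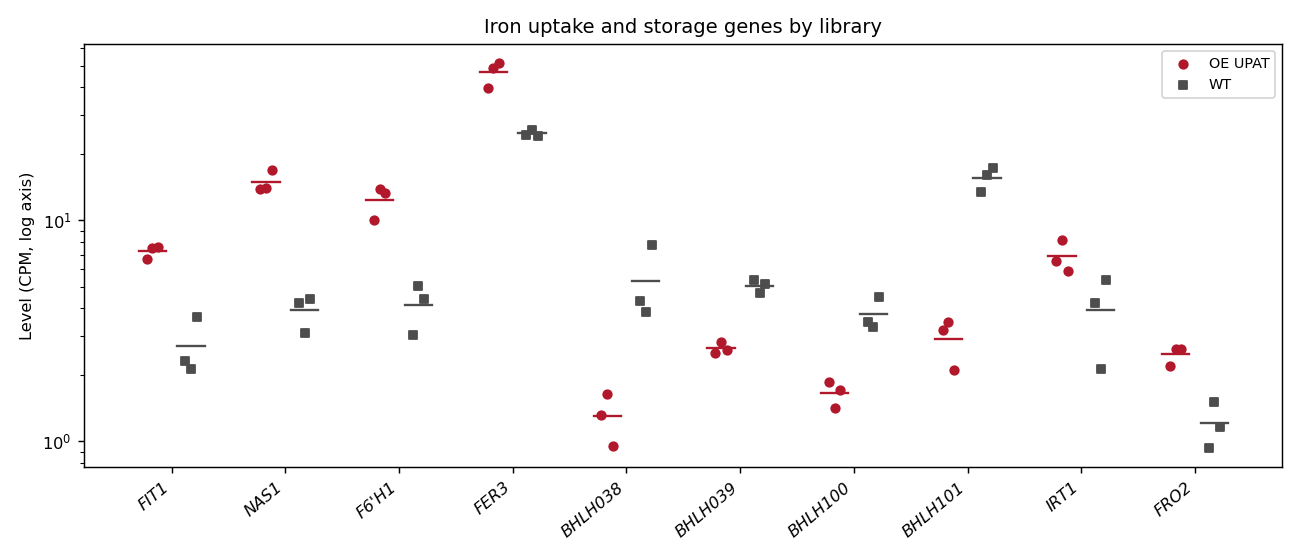
Level of 10 genes of iron uptake and storage in each library (CPM, logarithmic axis). Red circles are the OE UPAT libraries, grey squares the WT libraries, and lines the means of 3. FIT1, NAS1, F6'H1 and FER3 lie above WT and the 4 bHLH genes of subgroup Ib under it, in every library.

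In the phosphate list, 21 of 29 members could be tested, with 6 (28.6%) higher and 2 (9.52%) lower in OE UPAT (median log2 fold change 0.10). PHT1;1 and PHT1;2, phosphate importers with fractional counts in most libraries, both rose by 1.62 on the log2 scale. SQD1 and SQD2, which make sulfolipid, rose by 0.58 and 0.63. SPX1, the usual marker of phosphate starvation, had 18.8 ± 0.811 CPM in OE UPAT and 17.5 ± 1.19 CPM in WT (SD, n = 3 each).

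For cytochrome P450 genes, 131 of 225 members were tested, with 16 (12.2%) higher and 18 (13.7%) lower in OE UPAT around a median log2 fold change of 0.07. Among trehalose-phosphate phosphatases, 7 of 10 genes passed the filter, with 2 (28.6%) higher and 0 lower (0 at an unadjusted p under 0.05 and 0 with DESeq2) and a median log2 fold change of 0.25. For flavonoid regulators, the test found 0 higher (0 at an unadjusted p under 0.05 and 0 with DESeq2) and 2 (28.6%) lower among the 7 tested of 14 members, with a median log2 fold change of 0.07. In the unfolded protein response, all 14 members could be tested, with 2 (14.3%) higher and 1 (7.14%) lower in OE UPAT (median log2 fold change 0.09). Among heat shock chaperones, 9 of 18 members were tested, with 2 (22.2%) higher and 1 (11.1%) lower in OE UPAT around a median log2 fold change of -0.09. For seed storage and maturation, 7 of 20 genes passed the filter, with 0 higher (0 at an unadjusted p under 0.05 and 0 with DESeq2) and 1 (14.3%) lower and a median log2 fold change of -0.64, and the median was -1.90 with all libraries thinned to the smallest total. Against 2 calls of trehalose-phosphate phosphatases, the count was 1 with DESeq2, 1 with the replicate letter as a block, 1 without OE UPAT A, 1 without OE UPAT B, 1 without OE UPAT C, 1 without WT A, 1 without WT B, 1 without WT C and 1 with all libraries thinned to the smallest total. Against 2 calls of flavonoid regulators, the count was 1 with upper-quartile scaling, 1 without OE UPAT A, 1 without OE UPAT B, 1 without OE UPAT C, 1 without WT A and 1 without WT C. Against 3 calls of the unfolded protein response, the count was 5 with the 6 libraries alone, 1 without OE UPAT A, 1 without OE UPAT B and 1 without OE UPAT C. Against 3 calls of heat shock chaperones, the count was 1 without OE UPAT C. Against 1 call of seed storage genes, the count was 2 with DESeq2, 3 with no filter on low counts, 3 with the 6 libraries alone, 0 without OE UPAT A, 0 without OE UPAT B, 0 without OE UPAT C, 2 without WT A, 0 without WT B and 2 with all libraries thinned to the smallest total.

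Among single genes with a mean of at least 1 CPM and no overlap between the groups, the 10 with the largest positive log2 fold changes were EARLI1, AT1G05700, IMD1, LOX2, AT1G60750, IMS2, ALD1, AT5G26220, AT2G28780 and AT5G55450, down to 2.91 for AT5G55450. Of these, EARLI1, LOX2, IMD1, IMS2 (MAM3), ALD1 (which makes a precursor of the immune signal pipecolic acid) and AT5G26220 belong to lists above. AT1G05700, a receptor-like kinase, had 1.43, 2.18 and 3.93 CPM in OE UPAT A, B and C, against 0.144, 0 and 0.0778 CPM in WT A, B and C. AT1G05700 was under the floor in every WT library. The 10 with the largest negative values ended with AT2G16005 at -3.51. ECP63, a protein of late embryos, had 0, 0 and 0.131 CPM in OE UPAT A, B and C, against 2.66, 20.5 and 5.37 CPM in WT A, B and C. BIP3, a chaperone of the endoplasmic reticulum induced by misfolded proteins, had 0.548, 0.436 and 0.262 CPM in OE UPAT A, B and C, against 5.25, 22.7 and 9.1 CPM in WT A, B and C. TIP3;1, SARA1A and AT1G18830 had 2.23 to 11.5 CPM, 1.15 to 4.96 CPM and 2.81 to 19.7 CPM in WT, and in each of these 5 genes WT B was the highest WT library. The OE UPAT libraries held 0.55 CPM or less of each. Without WT B, the FDR of ECP63, SARA1A, AT1G18830 and TIP3;1 rose above 0.01, and all 5 calls were lost when any single OE UPAT library was left out. AT2G05510, a glycine-rich protein, had 4.28, 3.92 and 3.4 CPM in OE UPAT A, B and C, against 56, 94.2 and 66.7 CPM in WT A, B and C, and kept its call in every alternative.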

How the data were processed

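RNA of 3 replicates per group was sequenced by the study as stranded mRNA libraries of single 75 bp reads. The submitters' processing notes name Trimmomatic 0.36, STAR 2.5.2b and featureCounts of Subread 1.6.5 and the TAIR10 genome. The files hold expected counts per gene that the authors deposited without normalization, some of them fractional, and how reads were divided or assigned by strand is not given in the sources used here. Rows of transposable elements (0.233 to 0.272% of the counts) were left out. Counts were rounded, filtered with filterByExpr and scaled with TMM over all 9 libraries, then tested with edgeR 4.0.16 (quasi-likelihood, no covariate) for OE UPAT minus WT with Benjamini-Hochberg adjustment over 20021 genes. An FDR under 0.01, as in the study, counts as a call. The 65 gene lists, their members and the tests were chosen with earlier results of these data known. The text names the key members fixed per list, up to 4 called members per direction with the smallest p-values, the 10 genes with the largest folds per direction (mean of at least 1 CPM, no overlap) and families of at least 10 genes by symbol. A further family that met this rule is not reported here. Alternatives were DESeq2 1.42.0, other scalings and filters, fewer libraries, thinned counts and a replicate block. Promoter sequences and gene positions are from RefSeq, build TAIR10.1.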

Additional observations from a re-analysis of the deposited data

How the results depend on the processing

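Against 3971 calls, RLE scaling gave 3947, upper-quartile scaling 3995, DESeq2 3632, no filter on low counts 4395, a minimum of 10 counts 3909, the 6 libraries alone 4698, and thinning to the smallest total 3587. At an FDR under 0.05 there were 6306 (3193 higher and 3113 lower), and with a log2 fold change of at least 1 there were 729 (424 higher and 305 lower). Upper-quartile scaling called 2284 higher (57.2%) and 1711 lower, against 51.0% higher with TMM. Leaving out 1 library gave 2766 to 3275 calls (1332 to 1810 higher, lowest without OE UPAT C, and 1388 to 1554 lower) and, against the libraries labelled OE APOLO, 2209 to 3521. The replicate letters did not pair the samples (deviations of same-letter libraries correlated at -0.10 for A, -0.06 for B and 0.06 for C), and with the letter as a replicate block 3891 genes were called. Of 279 named genes called, 218 were called in each of the 13 alternatives that gave a result for them. A further 61 lost the call in at least 1, and 0 reversed. The median log2 fold change of the seed markers, -0.24, was -0.65 to 0.13 with 1 library left out, positive without OE UPAT C (0.13) and without WT A (0.07), and -1.54 with thinned libraries and -1.45 with the 6 libraries alone. The cause was not tested. Depth and group cannot be told apart, and the smaller OE UPAT libraries set the floor at 0.327 to 0.393 CPM. The p-values rest on a spread between replicates that was estimated over all 9 libraries. They do not measure a spread between independent UPAT lines, as OE UPAT is a single line.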
